A study of Mus musculus with 4 samples.

Results

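The F-box and Kelch-like genes of the mouse encode the interchangeable substrate receptors of cullin-RING ubiquitin ligases. They were measured in immature granulocytes of mice lacking the microRNA miR-223 and of wild-type mice. All genes whose array name is Fbxo, Fbxl, Fbxw or Klhl followed by a number were taken from the 27630 genes on the array. Of the genes so named, 81 were measured, which here requires a probe that 2 or more arrays read as well above background, and the other 24 were not. The samples were immature granulocytes sorted from bone marrow of male C57BL/6 mice, 2 labelled miR-223 KO and 2 labelled wild type (WT), and each was hybridised to its own array. The labels give neither the age of the mice, nor the construction of the deletion, nor whether replicates came from separate mice, so the spread between replicates may be technical. The family was selected on measured values, since Klhl5 had one of the larger KO minus WT differences on these same arrays. The differences of its members are therefore described, and none of them is offered as independent evidence.

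F-box proteins bind Skp1 through their F-box and so join the SCF ligase (Skp1, Cul1, Rbx1), while their other domain holds the substrate. In Fbxw proteins that domain is a WD40 propeller, in Fbxl proteins a leucine-rich repeat, and in Fbxo proteins something else. Kelch-like proteins bind Cul3 through a BTB domain and the substrate through a Kelch propeller. miR-223 is a myeloid microRNA that accumulates as granulocytes mature and represses transcripts that pair with its seed. Fbxw7, the receptor that marks phosphorylated cyclin E, Myc, Jun and Notch for destruction, is among its reported targets.

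The mature guide strand of miR-223, its shorter matches in probes of the family and 1 Fbxw7 probe are shown for reference. The differences between genotypes given below do not depend on these letters. Capitals mark the seed (bases 2 to 8) in the microRNA and, in the probes, the letters that pair with bases 2 to 7 of it, in Fbxw9 together with the A that follows them. The microRNA is from RefSeq (GRCm38.p6, chrX:96242884-96242905, plus strand). The probes are those of the array on mm9, all on the plus strand: Klhl5 at chr5:65558747-65558806, Fbxw9 at chr8:87590199-87590258 and Fbxw7 at chr3:84774762-84774821. For Klhl5 and Fbxw9 a window around the match is printed, and for Fbxw7 the whole probe.
miR-223-3p: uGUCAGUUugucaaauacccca
Klhl5 probe window: attaaaaataagACTGACcaaatggaaact
Fbxw9 probe window: tacacaacatctACTGACAagaccatt
Fbxw7 probe: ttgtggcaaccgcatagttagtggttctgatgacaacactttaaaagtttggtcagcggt

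The Klhl5 probe carried the 6-letter match ACTGAC, and the Fbxw9 probe carried ACTGACA, which contains it. No probe of the family carried the longer matches AACTGAC or AACTGACA, which overlap the shorter ones, and neither Fbxw7 probe carried any of the 4. On the strand as written, ACTGAC was in 2 of the 184 probes of the family (1.09%) and in 581 of the 41174 probes of the array (1.41%). ACTGACA was in 1 (0.543%) and 194 (0.471%) of them. AACTGAC was in 153 probes of the array (0.372%) and AACTGACA in 56 (0.136%). On the opposite strand GTCAGT was in 6 probes of the family (3.26%) and in 561 of the array (1.36%). TGTCAGT was there in 2 (1.09%) and 227 (0.551%), GTCAGTT in 2 (1.09%) and 151 (0.367%), and TGTCAGTT in 1 (0.543%) and 66 (0.16%). A probe is 60 bases of a transcript, so these counts say nothing of the remaining letters of these genes. With 0 probes matched by name to the miR-223 transcript, the KO labels were not checked on it.

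Levels below are log2 processed signals relative to the 75th percentile of each array, and a difference is KO minus WT on that scale, with its standard error (SE) from limma. A level depends on the probe and is compared only between arrays. The 75th percentile lay at signals of 361 and 422 on the KO arrays and 314 and 310 on the WT arrays. Between 59.6% and 62.9% of spots were well above background and 0 were saturated. All 4 arrays lay on 1 slide and had 1 scan time. The 12 measured of 14 neutrophil precursor markers, 7 higher and 5 lower in KO with a median of 0.08, had a summed linear level of 5476 to 6188 on the KO arrays and 5862 to 6415 on the WT arrays, in multiples of the 75th percentile. Among them the granule proteases Elane, Prtn3 and Ctsg were higher in KO by 0.50, 0.72 and 0.63 without overlap, while Mpo and Camp differed by 0.05 and -0.05. Ltf, S100a8 and S100a9 were lower in KO without overlap, with differences of -0.44, -0.20 and -0.20. In all, 5 of the 12 were higher and 3 lower without overlap. The other 2, Ly6g and Cebpe, were not analysed here.

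Klhl5, a BTB-Kelch protein with 1 probe on the array, had log2 levels of 1.84 and 1.82 on the KO arrays, against 0.47 and 0.37 on the WT arrays. Both KO arrays were above both WT arrays, by far more than replicates differed from each other. The signals behind these levels were 1292 and 1488 on the KO arrays and 436 and 401 on the WT arrays, well above background on all 4. The difference was 1.41 ± 0.09 (SE, n = 2 each), a 2.65-fold higher level in KO, and it was the highest among the 81 measured members. Across all 16978 genes tested, 75 genes (0.442%) had a higher one. Since Klhl5 was singled out from this contrast, no test is read from these values.

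Fbxo8, an F-box protein with a Sec7 domain of the kind that activates ARF GTPases, stood beside Klhl5. Its brighter probe (mm9, chr8:59070365-59070424) had log2 levels of 0.62 and 0.72 on the KO arrays, against -0.61 and -0.72 on the WT arrays. The 2 genotypes did not overlap, and the difference was 1.34 ± 0.09 (SE, n = 2 each), 2.54-fold, with 92 of all genes (0.542%) higher. Its other probe was well above background on 2 arrays, with levels of -5.60 and -5.08 on the KO arrays and -5.41 and -5.06 on the WT arrays. There the genotypes overlapped and the difference was -0.10, so the higher level of Fbxo8 rests on 1 probe, and the mean over both probes gave 0.62. The third highest difference in the family was that of Fbxo4, at 0.55.

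**Figure D1:**
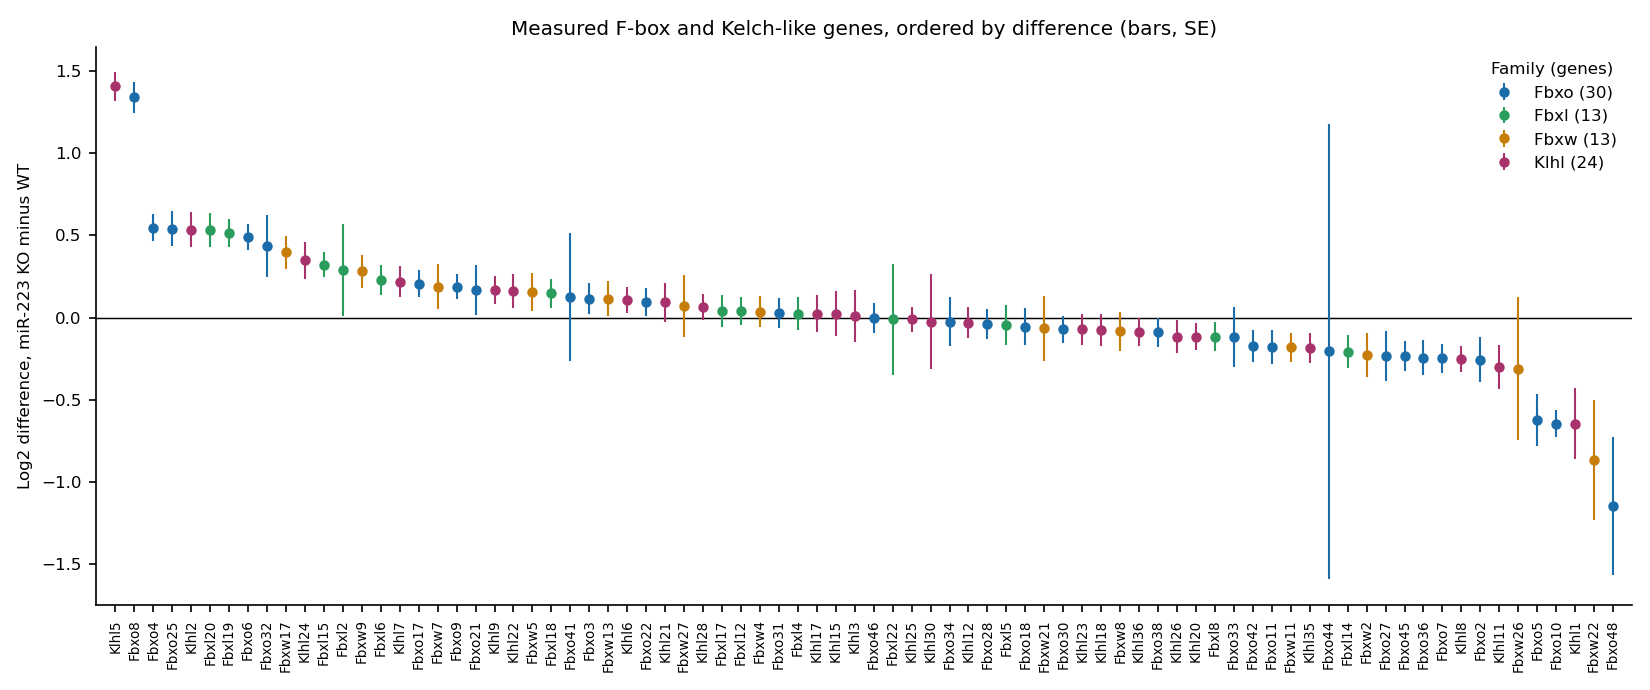
Log2 difference of 80 of the 81 measured members (KO minus WT, vertical axis), ordered from high to low and coloured by family, with bars for the SE. Klhl5 (1.41) and Fbxo8 (1.34) lie apart at the left, the following gene is Fbxo4 (0.55), and Fbxw7 (0.19) lies in 18th place among the remaining values.

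Fbxw7 did not share the position of Klhl5. Its brighter probe (mm9, chr3:84781446-84781505) had log2 levels of -0.06 and 0.20 on the KO arrays, against -0.21 and -0.03 on the WT arrays. The genotypes overlapped, since KO replicate 1 lay below WT replicate 2. The difference was 0.19 ± 0.14 (SE, n = 2 each, 95% interval -0.20 to 0.58), with an adjusted p of 0.46 in limma. It ranked 18 of 81 in the family from high to low, and 4078 of all genes (24.0%) had a higher difference. The interval includes a difference of 0 as well as one of 0.5.

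The second Fbxw7 probe, printed above, starts 6684 bases away. It had levels of -1.86 and -1.88 on the KO arrays, against -1.92 and -1.97 on the WT arrays. Here both KO arrays lay above both WT arrays, but the difference was only 0.07. This probe is open in 1 forward reading frame, whereas the brighter one has a stop in every frame. Neither probe showed a difference near that of Klhl5.

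Among 16 reported miR-223 targets, all measured, 15 were higher and 1 was lower in KO, with a median difference of 0.43, against -0.02 over all genes. Rhob, a small GTPase, was higher by 1.30 ± 0.08, and Lmo2, a haematopoietic transcription cofactor, by 0.80 ± 0.08. Mef2c and Igf1r were each higher by 0.43 ± 0.09 (SE, n = 2 each), and Fbxw7 lay below these at 0.19. Nfia, Nlrp3 and Chuk, at 0.19, 0.20 and 0.22, lay near Fbxw7, and 5 of the 16 differed by under 0.25 in size. E2f1 was the 1 that was lower, at -0.06 ± 0.09. In limma 0 of the 16 passed an adjusted p of 0.05 and 9 an unadjusted one, where 23.8% of all genes reached an unadjusted p under 0.05. With an intensity trend in the fit 8 of them passed, all higher in KO, where 9.58% of all genes passed, and Fbxw7 was not among the 8 (adjusted p = 0.371). On the same arrays 12 of 12 monocyte and macrophage markers (median 0.69) and 12 of 14 immediate early and heat shock genes (median 0.83) were higher in KO, and their part in the values of the targets was not tested.

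**Figure D2:**
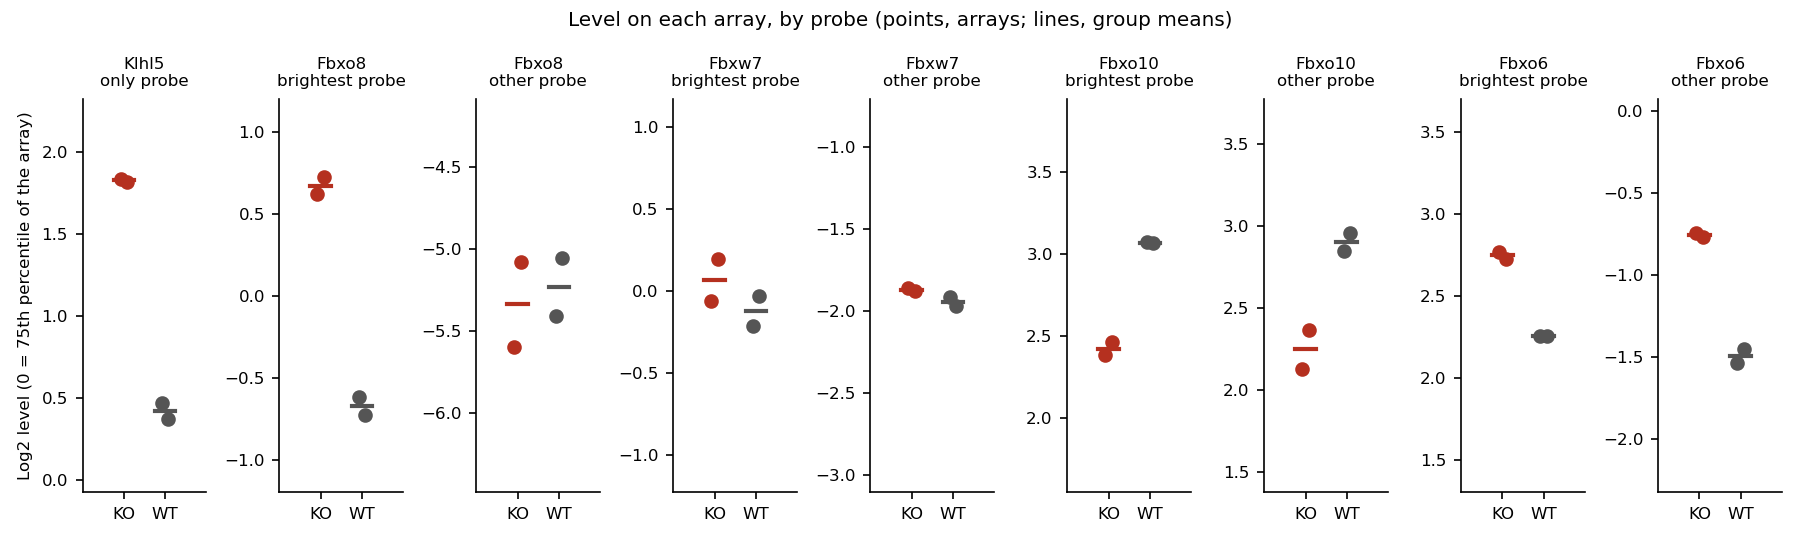
Log2 level on each array (vertical axis, 0 is the 75th percentile of the array, all panels spanning the same height) for every probe of Klhl5, Fbxo8, Fbxw7, Fbxo10 and Fbxo6, KO left and WT right, with lines at group means. Klhl5 and the brightest Fbxo8 probe separate by over 1 unit, both probes of Fbxo10 and Fbxo6 separate by about 0.5 or more, and the Fbxw7 probes separate by 0.19 and 0.07.

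How the family divided between the genotypes depended on the scaling. Of the 81 measured members, 40 were higher and 41 lower in KO, with a median difference of -0.00 where that of all 16978 genes tested was -0.02. With median scaling or on the authors' values the counts were 53 and 28, where 58.8% and 59.1% of all genes were higher, and after normexp they were 35 and 46, where 37.8% were. The median size of a difference, regardless of sign, was 0.169 in the family and 0.199 over all genes, and 57 members differed by under 0.25. In 47 members (58.0%) both KO arrays lay on one side of both WT arrays, 24 above and 23 below, where 58.6% of all genes did so. Because the family was selected on this contrast, the counts are set beside the background and nothing is read from them.

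At an adjusted p under 0.05, limma called 0 of the 81 members and 0% of all genes, the smallest adjusted p over all genes being 0.0838. With 2 arrays against 2, an exact permutation test cannot go below p = 0.333, so these calls rest on the spread that limma shares between genes. At an unadjusted p under 0.05 there were 15 members (18.5%), 11 higher and 4 lower in KO, where 23.8% of all genes passed. Allowing the spread to depend on intensity, limma called 9 members higher and 2 lower at an adjusted p under 0.05, where it called 5.45% of all genes higher and 4.13% lower (9.58% in all). These 11 were Klhl5, Fbxo8, Fbxo4, Fbxo6, Fbxo25, Fbxl19, Fbxl20, Fbxw17 and Klhl2, all higher, and Fbxo10 and Fbxo5, both lower. At a fitted difference of 2-fold or more either way there were 3 members, Klhl5, Fbxo8 and Fbxo48, where 2.5% of all genes reached that size. Fbxo48 was not well above background on either KO array, so its fitted difference is no measure of size. Leaving Klhl5 out, the counts among 80 genes were 46 without overlap, 14 at an unadjusted p under 0.05, 8 higher and 2 lower with the trend, and 2 at 2-fold.

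Other processing gave other counts of members. After normexp background correction limma called 10 members, where it called 11% of all genes. On the authors' deposited log2 values it called 2, where it called 0.359% of all genes. With the filter raised to all 4 arrays it called 2 of 75 members, where it called 0.8% of all genes. In the last 2 cases the 2 members were Klhl5 and Fbxo8.

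**Figure D3:**
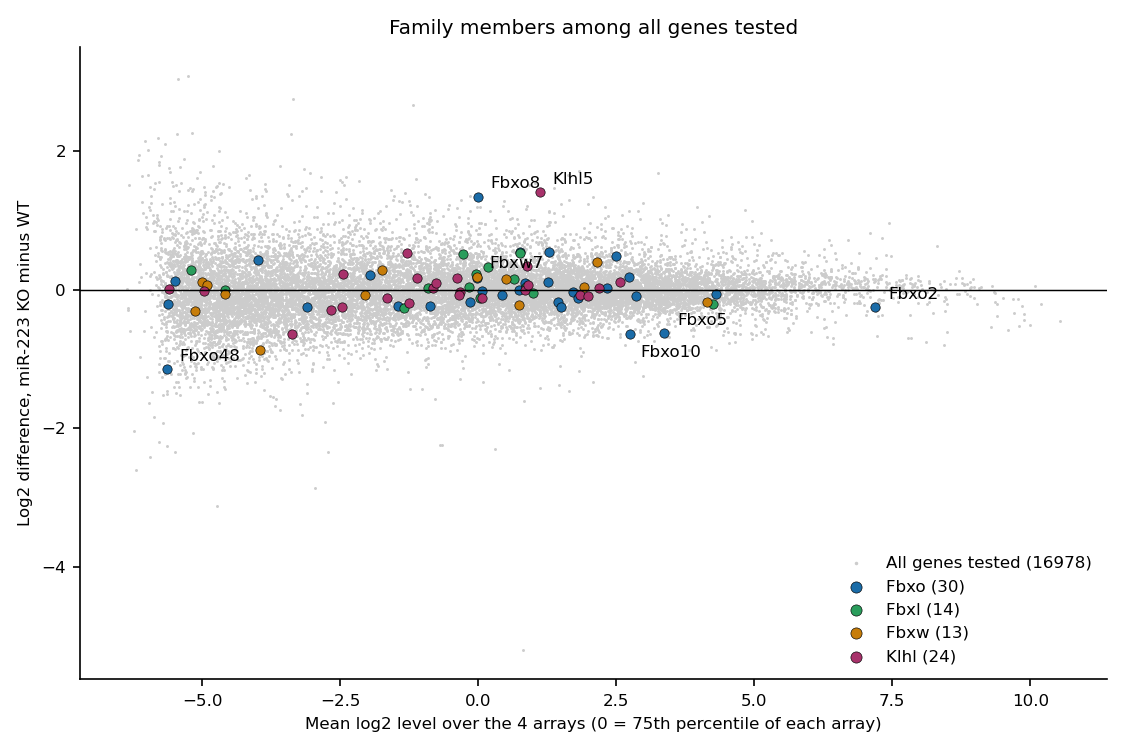
Mean log2 level over the 4 arrays (horizontal axis, 0 is the 75th percentile) against the log2 difference, KO minus WT (vertical axis), for all 16978 genes tested in grey and the 81 measured members in colour. Klhl5 and Fbxo8 lie at the upper edge of the grey cloud at intermediate levels, Fbxw7 lies inside it, and Fbxo48 lies among the dimmest genes.

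By family, 30 of the 36 Fbxo genes were measured, 12 higher and 18 lower in KO, with a median difference of -0.05 and a range of -1.15 to 1.34. Of the 18 Fbxl genes 14 were measured, 9 higher and 5 lower, with a median of 0.04 and a range of -0.26 to 0.53. Of the 19 Fbxw genes 13 were measured, 7 higher and 6 lower, with a median of 0.04 and a range of -0.87 to 0.40. Of the 32 Klhl genes 24 were measured, 12 higher and 12 lower, with a median of -0.00 and a range of -0.65 to 1.41. The median size of a difference was 0.11 in the Klhl genes. Klhl5, at 1.41, had been singled out from this contrast, so its distance from the others is only described. The groups did not overlap in 20 Fbxo, 8 Fbxl, 5 Fbxw and 14 Klhl genes, beside the 58.6% of all genes given above.

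Of the other members higher in KO, Fbxo4, a receptor reported for cyclin D1 and the telomere protein TRF1 in human cells, had log2 levels of 1.04 and 1.03 on the KO arrays, against 0.53 and 0.45 on the WT arrays. The genotypes did not overlap, and the difference was 0.55 ± 0.08 (SE, n = 2 each). The second probe well above background gave 0.37.

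Fbxo6 is grouped with Fbxo2, Fbxo17, Fbxo27 and Fbxo44. Some proteins of this group, though not all, recognise N-glycans on misfolded glycoproteins exported from the endoplasmic reticulum. Fbxo6 had levels of 2.77 and 2.72 on the KO arrays, against 2.26 and 2.26 on the WT arrays, a difference of 0.49 ± 0.08, and its second probe gave 0.74. The replicates of each genotype nearly coincided. The other genes of this group were picked by role after their values were seen, and they went both ways. Fbxo2 differed by -0.26 ± 0.13, Fbxo17 by 0.21 ± 0.08 and Fbxo27 by -0.23 ± 0.15. Fbxo44 lay near background with no clear direction (-0.21 ± 1.39), at levels of -6.64 and -4.81 on the KO arrays and -7.20 and -3.83 on the WT arrays.

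Fbxl19 and Fbxl20 are leucine-rich repeat receptors. Fbxl19, which also binds CpG islands in mouse embryonic stem cells, had levels of -0.05 and 0.01 on the KO arrays, against -0.51 and -0.57 on the WT arrays, a difference of 0.52 ± 0.08, and its second probe gave 0.43. Fbxl20, described in mouse brain as a receptor for the synaptic protein RIM1, had levels of 0.92 and 1.12 on the KO arrays, against 0.51 and 0.46 on the WT arrays, a difference of 0.53 ± 0.11, and its second probe gave 0.37. All 4 probes of this pair had both KO arrays above both WT arrays. At the second Fbxl19 probe this was only just so, with -3.55 and -2.75 on the KO arrays and -3.56 and -3.60 on the WT arrays. Fbxl15, a receptor reported for the ligase Smurf1 in human cells, had levels of 0.35 and 0.32 on the KO arrays, against 0.01 and 0.02 on the WT arrays, a difference of 0.32 ± 0.08 from 1 probe.

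Fbxo25, a nuclear relative of the muscle-atrophy receptor Fbxo32, had levels of 1.50 and 1.63 on the KO arrays, against 1.1 and 0.94 on the WT arrays. The difference was 0.54 ± 0.11, its second probe gave 0.39, and the genotypes did not overlap at either probe. Fbxo32 itself, dim on this array, differed by 0.43 ± 0.19. Klhl2, an actin-binding Kelch protein that also targets WNK kinases, had levels of -0.94 and -1.12 on the KO arrays, against -1.51 and -1.61 on the WT arrays, a difference of 0.54 ± 0.11 from 1 probe (0.30 after normexp, adjusted p = 0.0858). Fbxw9, printed above for its seed match and chosen after its value was seen, differed by 0.28 ± 0.10, without overlap between the genotypes. The adjusted p of the 8 higher genes chosen by rule (Fbxo8, Fbxo4, Fbxo6, Fbxl19, Fbxl20, Fbxo25, Klhl2 and Fbxl15) lay between 0.0838 and 0.132 in limma.

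Among members lower in KO, Fbxo10, a receptor reported for the survival protein BCL2 in human lymphoma cells, had log2 levels of 2.39 and 2.46 on the KO arrays (mm9, chr4:45047172-45047231), against 3.07 and 3.06 on the WT arrays. The difference was -0.65 ± 0.08 (SE, n = 2 each), and its second probe gave -0.65 as well. At both probes the 2 KO arrays lay below the 2 WT arrays. The adjusted p was 0.0875 in limma and 0.00838 with the intensity trend.

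Fbxo5, better known as Emi1, is an F-box protein that inhibits the anaphase-promoting complex and is made in cycling cells. It had levels of 2.88 and 3.25 on the KO arrays, against 3.62 and 3.75 on the WT arrays, a difference of -0.62 ± 0.16, and the genotypes did not overlap. A pair of cell-cycle receptors with other names were lower on the same arrays. Skp2, the receptor for the CDK inhibitor p27, had levels of -1.35 and -1.29 on the KO arrays and -0.81 and -0.74 on the WT arrays, a difference of -0.54 ± 0.08. Ccnf, cyclin F, the founding F-box protein, had levels of 1.27 and 1.57 on the KO arrays and 2.25 and 2.29 on the WT arrays, a difference of -0.84 ± 0.13. Beside these 3, all 18 of 18 mitotic genes, such as Mki67 and Top2a, were lower in KO, with a median difference of -0.52. Their summed level was 273 to 290 on the KO arrays and 401 to 418 on the WT arrays. The part of this list in the values of Fbxo5, Skp2 and Ccnf was not tested, and in sorted bulk samples fewer cells of a kind and less RNA per cell cannot be told apart.

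Fbxo7, a receptor tied to Parkinson disease in humans and to red cell maturation in mice, had levels of 1.34 and 1.40 on the KO arrays, against 1.67 and 1.57 on the WT arrays, a difference of -0.25 ± 0.09. Both KO arrays lay below both WT arrays. Of 12 erythroid markers 8 were measured, and 7 of them were lower and 1 higher in KO, with a median of -0.65. Their summed level was 81.4 to 110 on the KO arrays and 147 to 151 on the WT arrays. Klf1, Epb4.2 and Gata1 were not well above background, while the globin genes Hbb-b1 and Hba-a1 differed by -0.68 and -0.61. Their part in the value of Fbxo7 was not tested.

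Fbxo45, which in neurons works with the ligase MYCBP2 in place of a cullin, had levels of -1.63 and -1.51 on the KO arrays, against -1.30 and -1.37 on the WT arrays, a difference of -0.23 ± 0.09, and its second probe gave -0.49. Klhl8 had levels of -2.60 and -2.60 on the KO arrays, against -2.33 and -2.37 on the WT arrays, a difference of -0.25 ± 0.08. Its second probe gave -0.24, but there the genotypes overlapped, with -2.97 and -3.61 on the KO arrays and -3.07 and -3.03 on the WT arrays. Klhl1, an actin-binding Kelch protein of neurons, had levels of -3.69 and -3.71 on the KO arrays, against -3.33 and -2.77 on the WT arrays, a difference of -0.65 ± 0.22 (-0.37 without WT replicate 2). In the brightest probe of each of these 3 genes the genotypes did not overlap. Klhl1 was dim throughout, and its WT arrays differed from each other by nearly as much as the genotypes did.

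The probe of Fbxo48 was not well above background on either KO array. Its levels were -6.78 and -5.64 on the KO arrays, against -5.12 and -4.99 on the WT arrays. With KO replicate 1 raised to -5.56, the lowest level well above background on its array, Fbxo48 was 1.45-fold lower in KO. KO replicate 2 entered at its own level. That figure is no lower limit, since the interval of the fitted difference, -2.34 to 0.04, includes no difference. The adjusted p was 0.218 in limma. The fitted difference of -1.15 ± 0.42 is no measure of size, being -0.34 after normexp, -0.58 without KO replicate 1 and -1.72 without KO replicate 2.

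**Figure D4:**
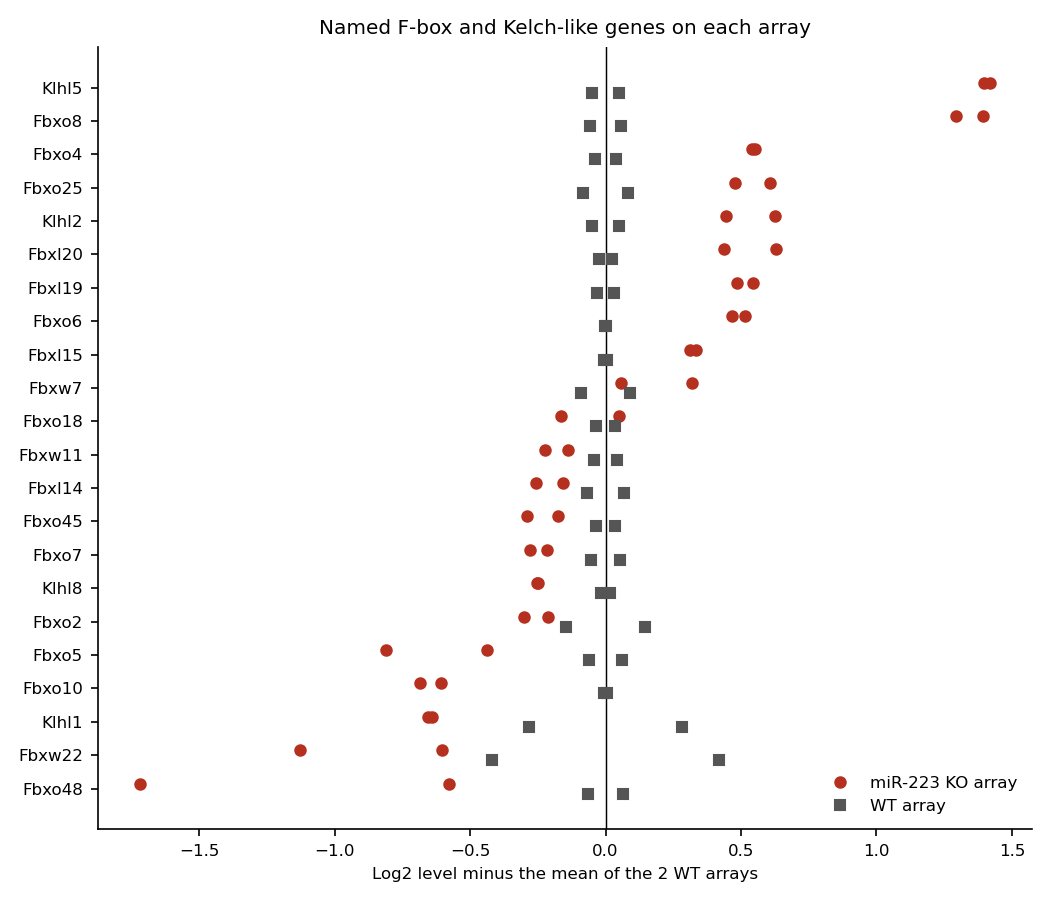
Log2 level of each named member on every array, minus the mean of its 2 WT arrays (horizontal axis), with KO arrays as red circles above WT arrays as grey squares, genes ordered by difference. The KO circles of Klhl5 and Fbxo8 lie over 1 unit to the right, those of Fbxo48 are widely spread, and the arrays of Fbxw7 and Fbxo18 overlap.

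Fbxw22 belongs to a run of near-identical Fbxw genes on chromosome 9 (mm9, chr9:109042040-109672648), where 11 genes of the family carried 14 probes. Only 5 of the 11 were measured, namely Fbxw13, Fbxw21, Fbxw22, Fbxw26 and Fbxw27, and all were dim. Fbxw22 had levels of -4.65 and -4.12 on the KO arrays, against -3.94 and -3.10 on the WT arrays, a difference of -0.87 ± 0.37 without overlap, which was -0.42 after normexp and lay between -1.29 and -0.45 when 1 array was left out. The other 4 differed by -0.31 to 0.11, and in each of them the genotypes overlapped. Since these copies may share transcripts' sequence, their values are uncertain.

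Of the members named for the strongest signals, Fbxo2, Fbxl14 and Fbxw11 were lower in KO without overlap, by at most 0.26. Fbxo2, at the probe used here, had levels of 7.11 and 7.02 on the KO arrays, against 7.18 and 7.47 on the WT arrays, a difference of -0.26 ± 0.13. Its other 2 probes gave signals of 127 to 220 across the 4 arrays, where the first gave 45521 to 55035, and their differences were -0.11 and -0.49. Fbxo18, a DNA helicase with an F-box that is now named Fbh1, had levels of 4.38 and 4.17 on the KO arrays, against 4.36 and 4.30 on the WT arrays, and the genotypes overlapped, at a difference of -0.06 ± 0.11 whose sign turned with median scaling, after normexp and on the authors' values.

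Fbxl14, a receptor for the transcription factor Snail1, had levels of 4.09 and 4.2 on the KO arrays, against 4.42 and 4.28 on the WT arrays, a difference of -0.21 ± 0.10. Fbxw11, one of the paired receptors that mark IκB and β-catenin, had levels of 4.01 and 4.10 on the KO arrays, against 4.27 and 4.19 on the WT arrays, a difference of -0.18 ± 0.09 (0.00135 after normexp), and its second probe gave -0.57. Its partner Btrc differed by -0.26 ± 0.09. In Fbxl14, Fbxw11 and Btrc both KO arrays lay below both WT arrays, and the adjusted p in limma was 0.297, 0.306 and 0.20.

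A few further members were picked by role after their values were seen. Fbxl5, the iron-sensing receptor for IRP2, differed by -0.05 ± 0.12 at its brightest probe, and its 4 probes ranged from -0.27 to 0.31. Fbxo11, a receptor reported for BCL6 in human B cells, differed by -0.18 ± 0.10. Klhl6, a Kelch protein needed for germinal centre B cells in mice, differed by 0.11 ± 0.08. In Fbxo11 and Klhl6 the genotypes did not overlap, although both differences were under 0.25 in size.

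The remaining 24 members were not well above background on enough arrays to be measured. They comprised 6 Fbxo, 4 Fbxl, 6 Fbxw and 8 Klhl genes. In 19 of them no array was well above background at any probe, as for Fbxl7, Klhl4 and Klhl13. In 5, namely Fbxo24, Fbxw14, Fbxw15, Fbxw19 and Klhl31, 1 array was. The measured share was 77.1% of the family and 61.4% of all genes on the array.

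Probes of 1 gene did not always agree. Of 41 measured members with several probes, 6 had probes that differed in sign and by over 0.5, namely Fbxl22, Fbxl5, Fbxo8, Fbxw2, Klhl22 and Klhl7. Fbxw2 ranged from -0.46 to 0.24 over 4 probes, and Klhl22 from -0.36 to 0.16 over 2. Fbxo31 was represented by a brighter probe with another name in the files, at 0.03, and its own named probe gave -0.05.

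In the shared machinery of these ligases, cullins and core subunits differed by -0.23 to 0.49. Of 13 cullins and core subunits, all measured, 4 were higher and 9 lower in KO, with a median of -0.09. Of these 13, 7 were without overlap, where 58.6% of all genes were. Cul1, the scaffold of the SCF ligase, had levels of 0.26 and 0.27 on the KO arrays, against 0.52 and 0.47 on the WT arrays, a difference of -0.23 ± 0.08. Cul3, the scaffold for Klhl proteins, had levels of 2.92 and 2.85 on the KO arrays, against 2.93 and 3.02 on the WT arrays, a difference of -0.09 ± 0.09. Both KO arrays lay below both WT arrays for each of these cullins. Cul7, which pairs with Fbxw8, was higher by 0.49 ± 0.12, while Fbxw8 differed by -0.08 ± 0.12 and Cul4a by -0.16 ± 0.08.

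Of 17 genes of the NEDD8 pathway and the COP9 signalosome, which switch cullins on and off, 12 were higher and 5 lower in KO, with a median of 0.08, and 9 were without overlap beside the same 58.6%. Dcun1d1, a NEDD8 ligase for cullins, had levels of 1.6 and 1.55 on the KO arrays, against 1.14 and 1.07 on the WT arrays, a difference of 0.47 ± 0.08. Uba3, a subunit of the NEDD8-activating enzyme, differed by 0.24 ± 0.12 and Cand2, a relative of the exchange factor Cand1, by 0.25 ± 0.11 (-0.0839 after normexp). In limma 0 genes of the cullin list and 0 of this list passed an adjusted p of 0.05, where 0% of all genes did. At an unadjusted p under 0.05 there were 2 (15.4%) and 1 (5.88%), where 23.8% of all genes passed. With the intensity trend, Cul7 and Dcun1d1 passed an adjusted p of 0.05, both higher in KO, where 9.58% of all genes passed.

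Of 15 receptors that carry other names, 2 were higher and 13 lower in KO, with a median of -0.14, and 6 were without overlap beside the same 58.6%. Besides Skp2 and Ccnf, Kdm2b, a histone demethylase with an F-box, differed by -0.36 ± 0.11 at its brightest probe and by -0.02 over the mean of its probes. Keap1, the Kelch receptor that holds NRF2 in check, differed by -0.04 ± 0.11. With the intensity trend Skp2 and Ccnf were the 2 of 15 (13.3%) that passed, both lower in KO, where 9.58% of all genes passed.

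Transcripts of proteins reported as Fbxw7 substrates went both ways. Of 16, 14 were measured, 7 higher and 7 lower in KO, with a median of 0.04, and 10 were without overlap beside the same 58.6%. Jun had levels of 2.58 and 2.65 on the KO arrays, against 1.47 and 1.29 on the WT arrays, a difference of 1.23 ± 0.10. The cyclins Ccne1 and Ccne2 differed by -0.68 ± 0.08 and -0.70 ± 0.11, and Myc by 0.24 ± 0.16. Beside Jun, 12 of 14 immediate early and heat shock genes, a list that includes Jun, were higher in KO, with a summed level of 257 to 261 on the KO arrays and 158 to 189 on the WT arrays. Beside Ccne1 and Ccne2 stand the lower mitotic genes given above. Fbxw7 acts on proteins, whose amounts were not measured, and the part of these lists in the values was not tested.

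Markers of other cells differed on the same arrays as Klhl5 and Fbxo8. All 12 of 12 monocyte and macrophage markers were higher in KO, with a median of 0.69, and their summed level was 116 to 133 on the KO arrays and 76.2 to 78.8 on the WT arrays. Adgre1, Ccr2 and Csf1r were higher by 0.97, 0.82 and 0.76. Of 5 eosinophil markers 4 were measured, 3 higher and 1 lower, with a summed level of 4.92 to 6.07 on the KO arrays and 2.22 to 2.71 on the WT arrays, and Il5ra was not well above background. Of 6 megakaryocyte and platelet markers 3 were measured, all higher, with a summed level of 1.64 to 2.22 on the KO arrays and 0.848 to 0.972 on the WT arrays. That sum is carried mostly by Gp9, which differed by 1.19 ± 0.11. In Pf4 (0.65 ± 0.59) and Itga2b (0.17 ± 0.60) the genotypes overlapped. Of 10 B-lineage markers 9 were measured, 2 higher and 7 lower, with a median of -0.26. Their summed level, 9.35 to 12.5 on the KO arrays and 9.09 to 9.56 on the WT arrays, is carried mostly by Cd79b, which differed by 0.46 ± 0.13. Of 8 T and NK cell markers 3 were higher and 5 lower, with a median of -0.14, and Cd3d differed by -1.43 ± 0.08. Their summed level, 39.9 to 47.6 on the KO arrays and 41.2 to 41.8 on the WT arrays, is nearly all Nkg7, which differed by 0.09 ± 0.12. The part of these markers in the values of Klhl5 and Fbxo8 was not tested.

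**Figure D5:**
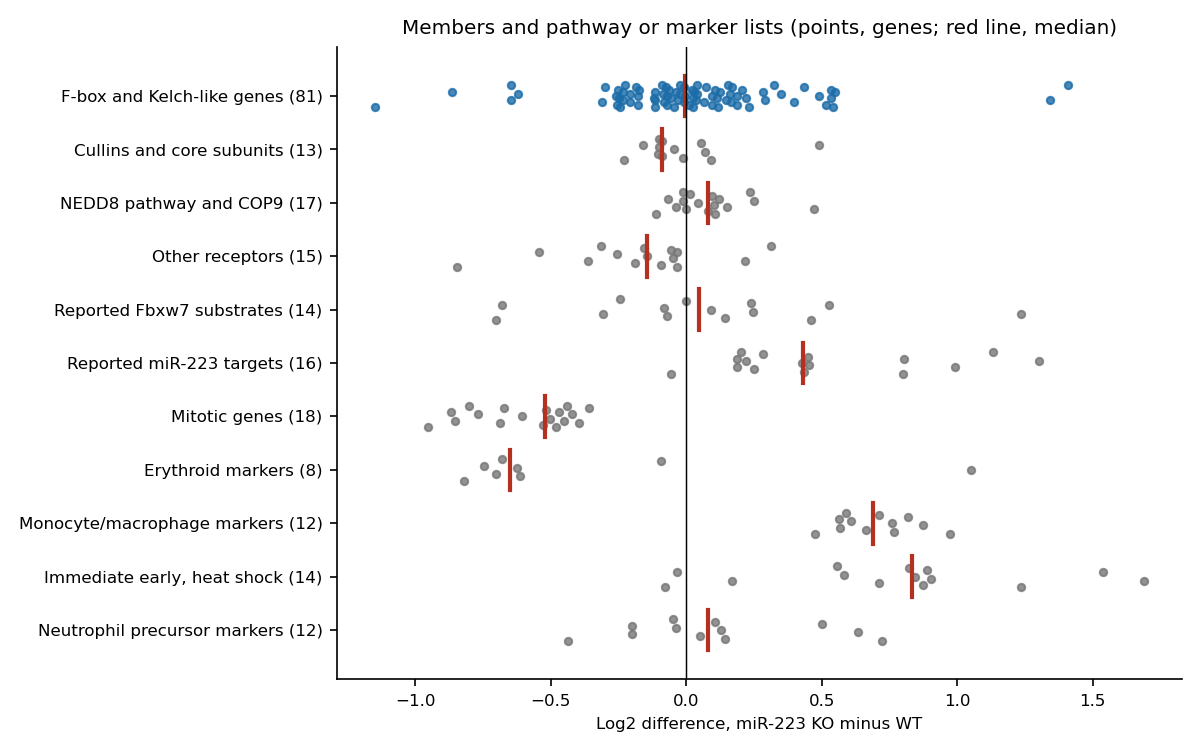
Log2 difference, KO minus WT, of each measured gene (points) in the family and in 10 pathway or marker lists, with the median of each as a red line. The family centres on 0 with Klhl5 and Fbxo8 far to the right, the reported miR-223 targets centre on 0.43, the mitotic genes on -0.52 and the monocyte and macrophage markers on 0.69.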

How the data were processed

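Per the labels, total RNA of 4 samples was labelled with Cy3 and hybridised to 1-colour arrays. The deposited intensity of a spot, its processed signal after background subtraction, came from Agilent Feature Extraction 10.5.1.1, per the file headers, and no scaling between arrays had been applied. The authors also deposited a table of log2 values, which tracked log2 processed signal (r above 0.9999 over 41174 probes, column medians 4.68) and whose centring is read from the data. Here log2 processed signals had each array's 75th percentile over non-control spots subtracted, spots of a probe were averaged, and probes well above background on at least 2 arrays were kept (25749 of 41174). A gene took its brightest probe. Differences were fitted over all 16978 genes with limma 3.58.1 in R 4.3.3 (lmFit, eBayes, Benjamini-Hochberg, adjusted p under 0.05, prior degrees of freedom 1.83), which was tested on simulated data. Current gene names came from RefSeq (GRCm38.p6), whose gene coordinates were not used.

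The members, the 14 gene lists and the tests were chosen with earlier results of these data known. Named by rule were Fbxw7 and Klhl5, the 8 other members with the smallest p in each direction, the 4 with the highest signal, and up to 3 genes with the smallest p in each of 4 lists (cullins and core subunits, NEDD8 pathway and COP9, other receptors, Fbxw7 substrates). Alternatives were an intensity trend, quantile and median scaling, normexp with offset 50, the authors' values, 2 other filters, the mean over probes, outlier spots left out, a replicate block and leaving out each array. For 2 arrays per genotype, precision is limited by their number. Values of a few single genes are not reported here.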

Additional observations from a re-analysis of the deposited data

How the results depend on the processing

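Over the 14 alternatives Fbxw7 was higher in KO by 0.06 to 0.32. Its difference was 0.19, as in the main fit, with the intensity trend, the 2 other filters, outlier spots left out and a replicate block. None of these changed the values of its probe, so they do not test its direction. In limma on all 4 arrays its adjusted p lay between 0.36 and 0.59. Klhl5 had 1.49 with median scaling, 1.33 after normexp and 1.49 on the authors' values. At an adjusted p under 0.05, limma called 0 members as reported, where it called 0% of all genes. It called 11 members with an intensity trend (9.58% of all genes) and 10 after normexp (11% of all genes). On the authors' values it called 2 (0.359% of all genes), and with all 4 arrays well above background 2 (0.8% of all genes). Fbxo8 dropped to 0.62 as the mean over its probes. Fbxo18 turned to 0.0227 with median scaling, 0.0420 after normexp, 0.0251 on the authors' values and lay between -0.163 and 0.0508 when 1 array was left out. After normexp Fbxw11 was 0.00135 and Cand2 -0.0839. The causes were not tested. Across genes, the deviations of KO replicate 1 and WT replicate 1 from their group means were hardly correlated (0.0386). That value cannot show whether the samples were paired by design. With a replicate block 0 members and 0 of all genes passed in limma, 3780 genes having an unadjusted p under 0.05. The count of members without overlap was 47 as reported (58.6% of all genes), 40 on the authors' values (52.4%) and 60 to 67 when 1 array was left out (78.1% to 80.4%). Dim genes such as Fbxo48, Fbxw22 and Klhl1 rest on signals near background.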
